A study of Mus musculus with 17 samples.

Results

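The comparison was between 4 lungs of tumor-free mice given IL12-GEMys and 4 lungs of tumor-free mice left untreated, 8 of the 17 libraries of the series. The libraries were chosen by their titles, No Tumor+IL12-GEMy 1 to 4 and No Tumor No Treatment 1 to 4. IL12-GEMys are myeloid cells engineered to secrete interleukin 12. According to the labels they were made from bone marrow cells by lentiviral transduction and culture with SCF, FLT3L and IL-6, and 8000000 of them were injected intravenously. All mice were C57BL/6, and lungs were taken 3 days after the cells. The other lung groups came from mice with 500000 M3-9-M ffluc-mCherry rhabdomyosarcoma cells placed in the gastrocnemius of the leg. These mice got IL12-GEMy or no treatment, with 4 libraries each, and their lungs are called tumor-bearing lungs here. The name refers to the mouse and not to tumor in the lung. In those mice the GEMys were given on day 12 and the lungs taken on day 15 after tumor inoculation. The last library was the injected cell product itself, with no replicate. No group was given myeloid cells that lack the engineered interleukin 12, so effects of the cells and of interleukin 12 cannot be told apart. The labels carry 1 protocol text for all lungs, and vehicle injection of the untreated mice, sex, age and the pooling of animals are not given in the sources used here. The labels do not tell whether each library is 1 mouse. The p-values therefore measure only the spread between these libraries, which may be technical.

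Interleukin 12 is a cytokine of phagocytes and dendritic cells that acts on NK and T cells through a receptor of 2 chains, IL12RB1 and IL12RB2. Its best known product is interferon gamma, which signals through JAK kinases and turns on transcription factors such as IRF1. Its classical targets are guanylate-binding proteins, immunity-related GTPases, CXCR3 ligands, the immunoproteasome and the antigen presentation machinery. In lung, nearly every cell type carries the interferon gamma receptor, and NK cells are a resident source of the cytokine.

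Values were FPKM deposited by the authors, fragments per kilobase of gene span, introns included, scaled to the assigned reads of the library. The read number of a library, recovered from the steps between low values, was 27939585 to 32576548 in the 8 tumor-free lungs. Pairs of libraries within each tumor-free group correlated at 0.992 to 0.997 over log2 values. The first principal component of the 16 lungs held 53.8% of the variance, with GEMy-treated tumor-free lungs at -8.77 to -1.24, untreated tumor-free lungs at -27.5 to -24.4 and both tumor-bearing groups above 0. Lung identity was clear in every library: surfactant protein C (Sftpc) stood at 5087, 4921, 3993 and 4650 FPKM in GEMy-treated lungs and 4698, 4862, 4395 and 4864 FPKM in untreated lungs. Hemoglobin transcripts, which mark blood left in the tissue, took 0.0735 to 0.252% of assigned reads in GEMy-treated lungs and 0.143 to 1.15% in untreated lungs, and the 2 ranges overlapped.

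Of 10284 genes tested (at least 0.5 FPKM in at least 4 of the 16 lung libraries), 730 or 7.10% differed between GEMy-treated and untreated tumor-free lungs at a limma adjusted p under 0.05. Of these, 576 genes (5.60%) were higher and 154 (1.50%) lower with GEMy. The count of falls was the less firm: it was 89, 98 and 59 without GEMy-treated replicate 1, 2 or 4, 80, 67 and 89 without untreated replicate 1, 2 or 3, 359 with only the 8 compared libraries in the fit and 834 with array weights. At least 2-fold changes on the log2(FPKM + 0.5) scale were 149 rises (1.45%) and 1 fall (0.00972%). Quantile normalization gave 487 higher and 290 lower genes, a share of 62.7% higher among the calls instead of 78.9%. The groups did not overlap in 1874 genes (18.2%), and 2055 genes (20.0%) had an unadjusted p under 0.05. The median log2 fold change over all genes tested was -0.02.

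**Figure D1:**
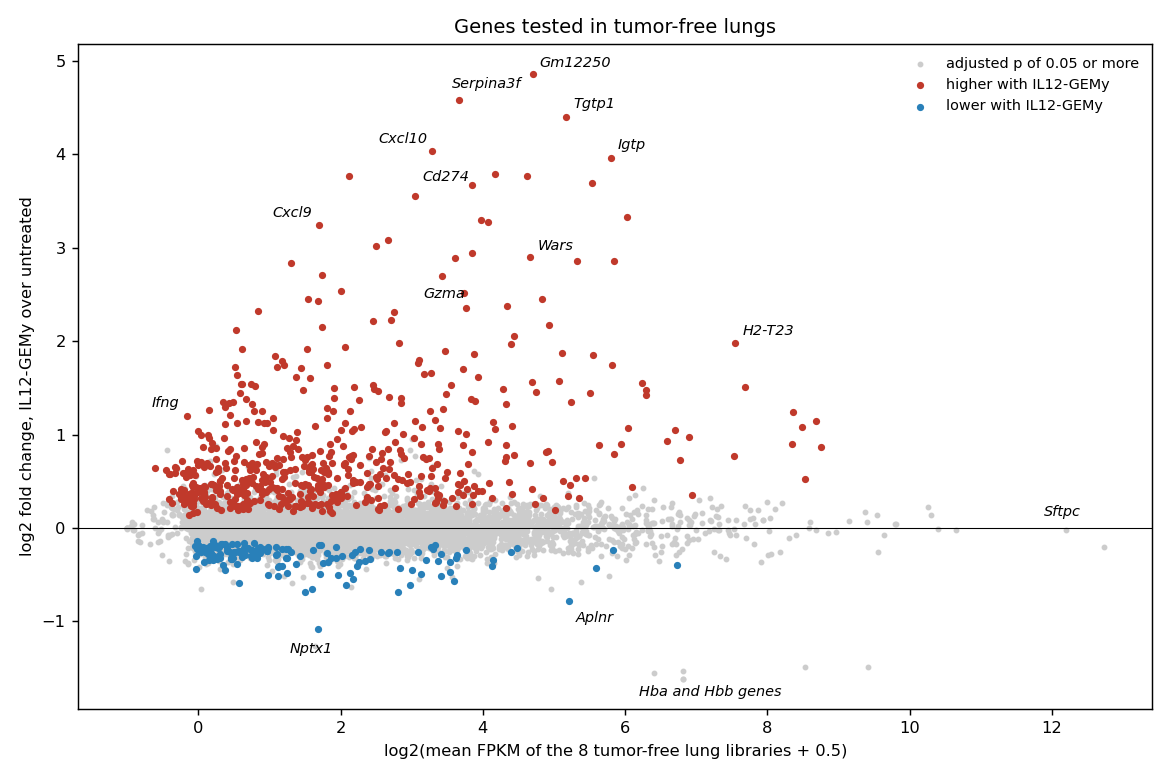
Each point is 1 of the 10284 genes tested in tumor-free lungs. The horizontal axis is log2(FPKM + 0.5) of the mean over 8 libraries and the vertical axis the log2 fold change of IL12-GEMy over untreated. Rises reach 4.86 (Gm12250), while Nptx1 at -1.08 is the largest fall that passed; the hemoglobin genes lie lower but did not pass.

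Apart from the predicted gene Gm12250, the largest rise was that of Serpina3f, a serine protease inhibitor of the murine Serpina3 cluster. It had 22, 17.5, 20.6 and 35.3 FPKM in GEMy-treated lungs and 0.522, 0.383, 0.417 and 0.618 FPKM in untreated lungs. The difference was 4.58 ± 0.24 on the log2 scale (SE, adjusted p = 9.0e-09), and no library of one group reached the other. The gene lies at chr12:104214544-104221129 (mm10) inside the listed span of its neighbor Serpina3g, which rose by 2.7, so reads of the pair may be shared between them. Both belong to a list of 16 tested complement and acute phase genes in which 5 rose, including serum amyloid Saa3 (0.96) and complement factor B (Cfb, 0.59), and none fell. C3, the central complement component, and the acute phase protein haptoglobin (Hp) had log2 differences of 0.07 and -0.11 and did not pass.

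The immunity-related GTPases and guanylate-binding proteins (GBPs), 2 families of interferon-inducible GTPases that attack vacuoles of intracellular pathogens, rose as whole families. All 10 immunity-related GTPases tested were higher (median log2 fold change 3.09, range 1.34 to 4.86), as were all 9 tested of 11 GBPs (median 3.30, range 1.79 to 3.78), against 5.60% of all genes. Members of both families include close copies, so how reads were split between single members is uncertain. Summed over the family, immunity-related GTPases were 509 to 642 FPKM with GEMy and 41.8 to 54.3 FPKM without, and GBPs 213 to 282 FPKM with GEMy and 16.5 to 21.7 FPKM without. The regions upstream of 7 of these genes are printed here because members of both families moved together. GAS-like motifs (TTCNNNGAA, the core of the interferon gamma activated site) and ISRE-like motifs (GAAANNGAAA or its reverse complement, the interferon-stimulated response element) are in capitals. Sequences are the 120 bases before the RefSeq start on the gene's strand, GRCm38.p6, and the windows are given as chr11:58199436-58199555 (Igtp), chr11:58214857-58214976 (Irgm2), chr11:48992247-48992366 (Tgtp1, minus strand), chr11:49064213-49064332 (Tgtp2, minus strand), chr11:58183723-58183842 (Gm12250), chr3:142620543-142620662 (Gbp2) and chr3:142530216-142530335 (Gbp7).
Igtp: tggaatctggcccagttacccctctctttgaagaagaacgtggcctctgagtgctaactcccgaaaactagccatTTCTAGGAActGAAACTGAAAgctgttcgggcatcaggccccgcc
Irgm2: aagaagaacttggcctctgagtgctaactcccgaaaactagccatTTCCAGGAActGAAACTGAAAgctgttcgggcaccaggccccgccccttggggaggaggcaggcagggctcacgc
Tgtp1: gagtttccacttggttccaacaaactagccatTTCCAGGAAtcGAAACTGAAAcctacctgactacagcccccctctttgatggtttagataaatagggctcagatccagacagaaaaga
Tgtp2: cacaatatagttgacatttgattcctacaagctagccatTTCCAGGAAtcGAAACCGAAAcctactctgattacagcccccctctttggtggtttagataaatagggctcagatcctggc
Gm12250: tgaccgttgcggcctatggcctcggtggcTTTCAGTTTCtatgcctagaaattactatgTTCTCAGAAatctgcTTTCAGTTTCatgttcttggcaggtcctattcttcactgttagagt
Gbp2: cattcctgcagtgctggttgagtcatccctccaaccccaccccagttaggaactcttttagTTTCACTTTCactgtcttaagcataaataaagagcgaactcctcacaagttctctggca
Gbp7: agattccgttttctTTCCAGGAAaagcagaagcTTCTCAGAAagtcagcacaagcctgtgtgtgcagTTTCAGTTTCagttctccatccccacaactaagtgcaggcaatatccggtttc

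In Igtp, Irgm2, Tgtp1 and Tgtp2 the ISRE-like motif began 11 bases after the start of the GAS-like one, with 2 bases between them, and these stretches read almost alike. Within 250 bases before the start, 6 of the 7 immunity-related GTPases with a RefSeq entry and all 4 such GBPs held at least 1 of the motifs, which may overlap each other. Ifi47 held none in that window, and Gbp3 and Irgm1 held only ISRE-like motifs. These genes and Gbp5 are not printed, so the sequences shown lean toward genes with both motifs. Over the 8126 tested genes with an entry the share was 8.25%, and it was 22.2% among the 450 genes that rose and 8.33% among the 120 that fell. Among genes that rose at least 2-fold it was 45.8% of 107. These are matches of letters on the sequence and no measure of binding.

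Igtp, which guards against intracellular parasites, had 113, 94.7, 97.5 and 112 FPKM in GEMy-treated lungs and 6.16, 7.09, 5.87 and 5.81 FPKM in untreated lungs. The log2 difference was 3.96 ± 0.19 (adjusted p = 3.5e-09). Tgtp1, the first T cell-specific GTPase, had 69.8, 58.3, 70.3 and 75.3 FPKM with GEMy and 3.25, 2.57, 2.80 and 2.47 FPKM without, a difference of 4.40 ± 0.27 (adjusted p = 3.3e-08). The predicted family member Gm12250 gave the highest value of the comparison, with a mean of 49.8 ± 13.7 FPKM in GEMy-treated lungs and 1.20 ± 0.107 FPKM in untreated lungs (SD, n = 4 each). In each of these genes all GEMy-treated libraries were far above all untreated ones. The other members rose by 3.76 (Iigp1), 3.32 (Tgtp2), 2.86 (Irgm2), 2.86 (Irgm1), 2.69 (Ifi47), 1.72 (Gm4951) and 1.34 (F830016B08Rik).

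Gbp2 had 94.4, 77.1, 72.6 and 98.2 FPKM in GEMy-treated lungs and 6.19, 6.60, 5.94 and 5.74 FPKM in untreated lungs (difference 3.69 ± 0.30, adjusted p = 5.5e-07). Gbp10, which had at most 0.136 FPKM in untreated lungs, averaged 7.63 ± 1.06 FPKM with GEMy and 0.0943 ± 0.0401 FPKM without (SD, n = 4 each). Its difference was 3.77 on a scale that adds 0.5 and so understates it. Gbp6, Gbp5, Gbp3, Gbp4 and Gbp7 rose by 3.78, 3.55, 3.30, 3.27 and 2.95, and Gbp8 and Gbp9 by 1.91 and 1.79. The groups were apart for all 9.

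**Figure D2:**
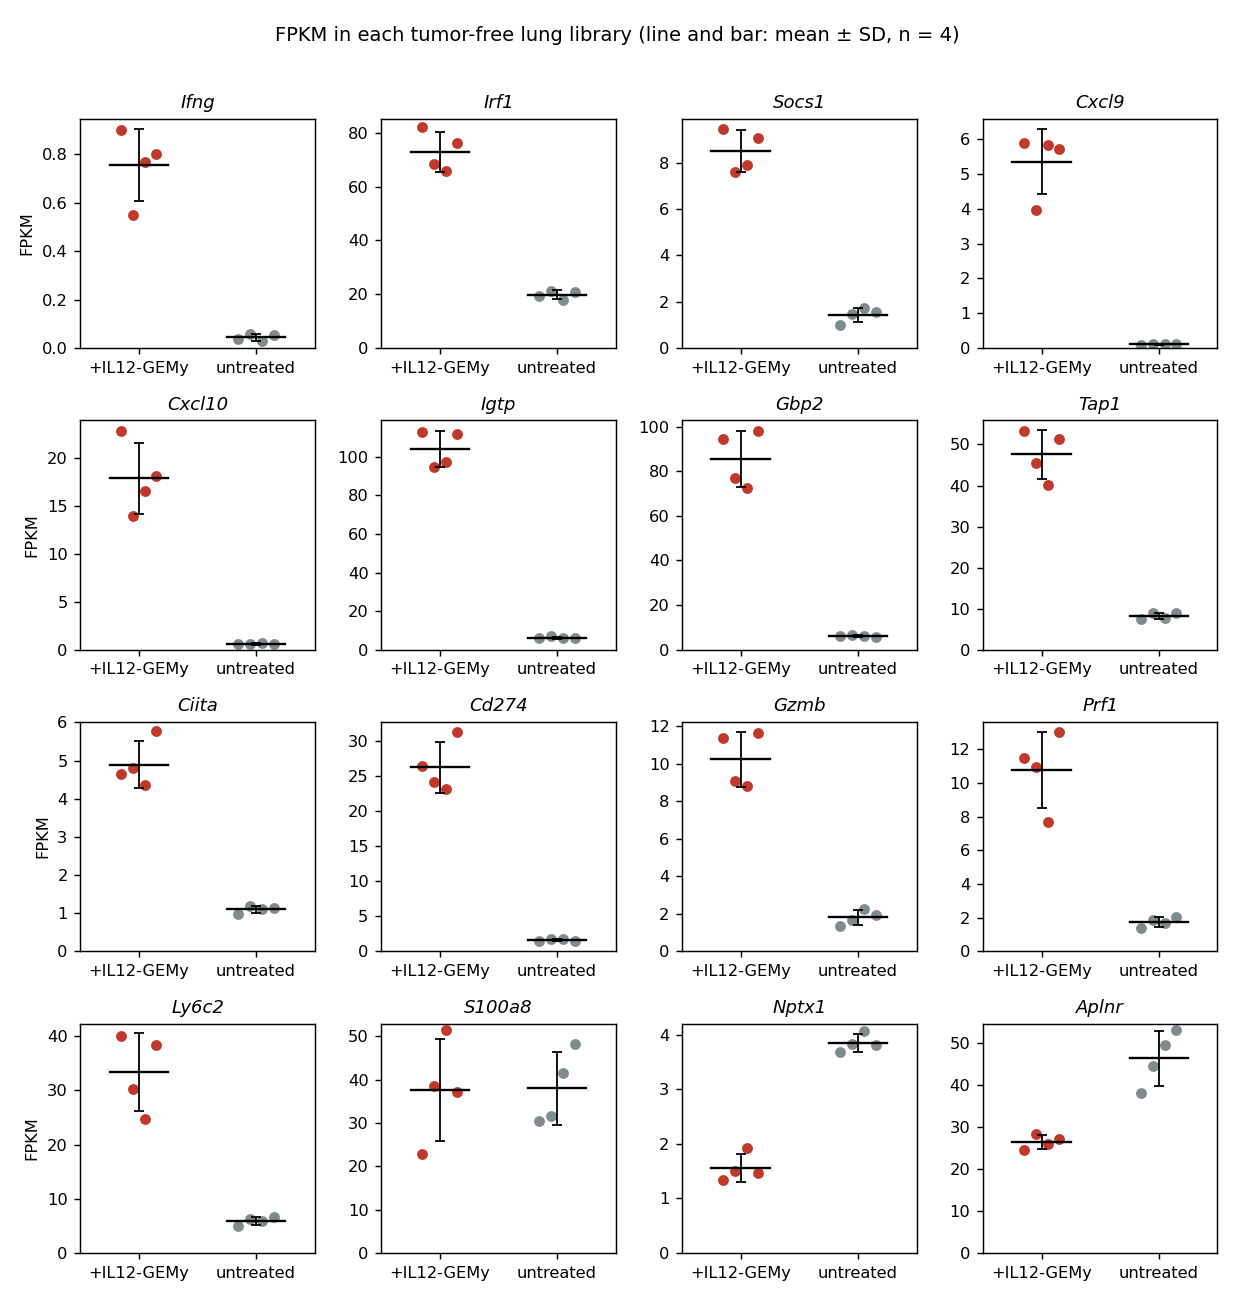
FPKM of 16 genes in each tumor-free lung library, GEMy-treated on the left and untreated on the right, with the mean and SD of 4 libraries. The groups are apart in every panel except S100a8, where they overlap; Nptx1 and Aplnr are the only panels in which untreated lungs are higher.

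Interleukin 12 transcripts themselves were scarce in lung. Il12a and Il12b, the p35 and p40 chains, were under the minimum for testing and are given from a fit with no minimum. Il12a had 0.187, 0.159, 0.169 and 0.114 FPKM in GEMy-treated lungs, 0.240, 0.254, 0.289 and 0.230 FPKM in untreated lungs and 2.22 FPKM in the cell product. It was lower by -0.20 (adjusted p = 0.0224). Il12b had 0.120, 0.128, 0.185 and 0.213 FPKM with GEMy, 0.0882, 0.0560, 0.0553 and 0.0391 FPKM without and 0.330 FPKM in the product, and did not pass (0.24, adjusted p = 0.0674). FPKM counts reads on the mouse genes as listed, and how reads of an engineered transcript would be assigned is not given in the sources used here.

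A list of 13 genes joined the interleukin 12 family, its receptors and interleukin 18 genes. Of its 6 tested members 4 rose and none fell (median 0.47). Il18bp and Il18rap, which belong to interleukin 18, were among the rises. The receptor chain Il12rb1 averaged 0.410 ± 0.0996 FPKM in GEMy-treated lungs and 0.109 ± 0.0260 FPKM in untreated lungs (SD, n = 4 each), a rise of 0.57 (adjusted p = 1.4e-04) that quantile normalization did not keep (adjusted p = 0.0943). Its partner Il12rb2, also under the minimum, averaged 0.0994 ± 0.0145 FPKM with GEMy and 0.0417 ± 0.00855 FPKM without (0.15, adjusted p = 0.00199 with no minimum). Il18bp, a secreted inhibitor of interleukin 18 that is itself an interferon gamma target, was the largest rise here, at 21.0 ± 2.68 FPKM with GEMy and 2.38 ± 0.0413 FPKM without (2.89, adjusted p = 9.0e-08). Il18rap, the accessory chain of the interleukin 18 receptor, rose by 0.85, and its partner Il18r1 was at -0.20 and did not pass.

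Interferon gamma (Ifng) had 0.901, 0.551, 0.768 and 0.801 FPKM in GEMy-treated lungs and 0.0369, 0.0562, 0.0290 and 0.0555 FPKM in untreated lungs. The means stand 17.0-fold apart, and on the log2(FPKM + 0.5) scale, which compresses values this low, the rise was 1.20 ± 0.20 (adjusted p = 9.6e-04). Of 19 tested members of the interferon gamma and JAK-STAT list, 12 rose and none fell (median 0.45). Those that rose were mostly transcription factors and feedback genes. Irf1 had 82.0, 68.3, 65.7 and 76.1 FPKM with GEMy and 19.2, 21.3, 17.9 and 21.0 FPKM without (1.85 ± 0.15, adjusted p = 5.5e-07), with the groups apart. Socs1, which blocks JAK kinases, rose by 2.22, Irf7 by 1.97 and Stat2 by 1.49. Tbx21, the T-bet factor of type 1 lymphocytes, rose by 1.33, and Irf8, a factor of monocytes and dendritic cells, by 1.04. The receptor chains and kinases at the head of the pathway did not pass: log2 differences were -0.03 for Ifngr1, 0.04 for Ifngr2, 0.10 for Jak1 and 0.13 for Jak2.

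The chemokines that attract cells bearing CXCR3 rose steeply. Cxcl10 had 22.8, 14.0, 16.5 and 18.1 FPKM in GEMy-treated lungs and 0.588, 0.575, 0.687 and 0.553 FPKM in untreated lungs (4.04 ± 0.39, adjusted p = 3.4e-06). Cxcl9 had 5.90, 3.96, 5.82 and 5.72 FPKM with GEMy and 0.0955, 0.126, 0.120 and 0.105 FPKM without (3.24 ± 0.39, adjusted p = 4.1e-05), a 48.0-fold difference of means. Ccl5, an attractant of T and NK cells, rose by 1.28, whereas the receptor Cxcr3 itself was at 0.17 and did not pass. In all, 4 of 5 tested members of the list rose. Among 21 tested chemokines and receptors of myeloid cells, 11 rose and none fell (median 0.50). Ccl8, a monocyte attractant, averaged 6.12 ± 0.48 FPKM with GEMy and 1.23 ± 0.226 FPKM without (1.94, adjusted p = 2.3e-08). Ccl4 rose by 1.79, Ccl3 by 1.75, Ccl12 by 1.21, Ccl2 by 1.11 and the monocyte receptor Ccr2 by 0.84. The count fell to 7 without GEMy-treated replicate 1 or 4, or untreated replicate 1, 2 or 4. Neutrophil-directed Cxcl1, Cxcl15 and the receptor Cxcr2 were at 0.10, -0.06 and -0.12 and did not pass. Of 11 lymphoid and homeostatic chemokine genes 3 rose, the dendritic cell and T cell attractants Ccl19 (1.12), Ccl17 (1.08) and Ccl22 (0.68).

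Most antigen presentation genes tested were higher in GEMy-treated lungs. Of 18 MHC class I pathway genes 15 rose (median 1.24) and none fell. Tap1, a subunit of the peptide transporter, had 53.3, 45.4, 40.1 and 51.4 FPKM in GEMy-treated lungs and 7.45, 8.83, 7.73 and 8.95 FPKM in untreated lungs (2.46 ± 0.16, adjusted p = 6.7e-08). The nonclassical molecule H2-T23, the mouse Qa-1 antigen, averaged 298 ± 38.3 FPKM with GEMy and 74.8 ± 3.92 FPKM without (1.98, adjusted p = 2.3e-08). The class I transactivator Nlrc5 rose by 1.72, B2m by 1.24, H2-K1 by 1.08 and H2-D1 by 0.87. Their near-identical relatives make the split of reads between class I genes uncertain. The 3 that did not pass were the general chaperones Calr (0.20), Pdia3 (0.16) and Canx (0.04). All 5 immunoproteasome genes rose (median 1.44), led by the catalytic subunits Psmb9 (1.86) and Psmb8 (1.74). In the constitutive proteasome core, 3 of 14 subunits rose by small amounts, Psma7 (0.35), Psma5 (0.30) and Psmb2 (0.24), with a median of 0.17.

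For MHC class II, 9 of 12 genes rose (median 0.83). The class II transactivator Ciita had 4.65, 4.79, 4.36 and 5.77 FPKM in GEMy-treated lungs and 0.980, 1.20, 1.11 and 1.13 FPKM in untreated lungs (1.74 ± 0.12, adjusted p = 7.2e-08). H2-DMa, a peptide exchange factor, rose by 1.15, H2-Ab1 by 0.98 and the invariant chain Cd74 by 0.90. H2-Oa, H2-Ob and H2-DMb2, of which the first 2 encode the B cell associated DO heterodimer, were at 0.15, -0.20 and -0.05 and did not pass.

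Cd274 and Ido1, which restrain T cells, rose as well. Cd274, the ligand PD-L1, had 26.4, 24.0, 23.1 and 31.2 FPKM in GEMy-treated lungs and 1.46, 1.71, 1.77 and 1.43 FPKM in untreated lungs (3.67 ± 0.28, adjusted p = 2.5e-07). Ido1, the first enzyme of tryptophan breakdown to kynurenine, averaged 3.84 ± 0.910 FPKM with GEMy and 0.0995 ± 0.00717 FPKM without (2.83, adjusted p = 4.0e-05). The tryptophanyl-tRNA synthetase Wars rose to 50.6, 44.0, 35.0 and 47.9 FPKM with GEMy, against 6.08, 5.84, 4.59 and 5.49 FPKM without (2.90 ± 0.15, adjusted p = 9.0e-09). In all, 5 of 11 tested checkpoint and costimulatory genes of 20 listed rose and none fell, the others being Tnfsf10, Lgals9 and Tnfrsf18. Lag3 and Havcr2, receptors found on activated or exhausted T cells, were at 0.23 and 0.40 and did not pass. Interleukin 10 (Il10) averaged 0.297 ± 0.0809 FPKM with GEMy and 0.0101 ± 0.00363 FPKM without, which on the compressed scale was a rise of 0.64 (adjusted p = 1.8e-05). Arg1 and Nos2, the arginine-consuming enzymes of myeloid cells, were at -0.03 and -0.03 and did not pass, Nos2 in the fit with no minimum.

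Genes usually counted as targets of type I interferon rose in 26 of 27 tested members (median 1.35), the exception being Isg20. Zbp1, a sensor of left-handed nucleic acids, had 11.8, 9.03, 10.1 and 12.5 FPKM in GEMy-treated lungs and 0.823, 0.820, 0.914 and 0.763 FPKM in untreated lungs (3.08 ± 0.23, adjusted p = 1.8e-07). The ubiquitin-like modifier Isg15 had 44.2, 30.8, 27.9 and 35.4 FPKM with GEMy and 8.21, 7.80, 8.04 and 7.26 FPKM without (2.06 ± 0.24, adjusted p = 1.9e-05). Many of these genes also answer to interferon gamma, so the list does not tell the interferons apart. The PARP, Schlafen and p200 families, interferon-inducible groups of ADP-ribosyl transferases, growth regulators and DNA sensors, rose in 19 of 20 tested members (median 0.89), led by Ifi211 (1.54) and Ifi204 (1.52).

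**Figure D3:**
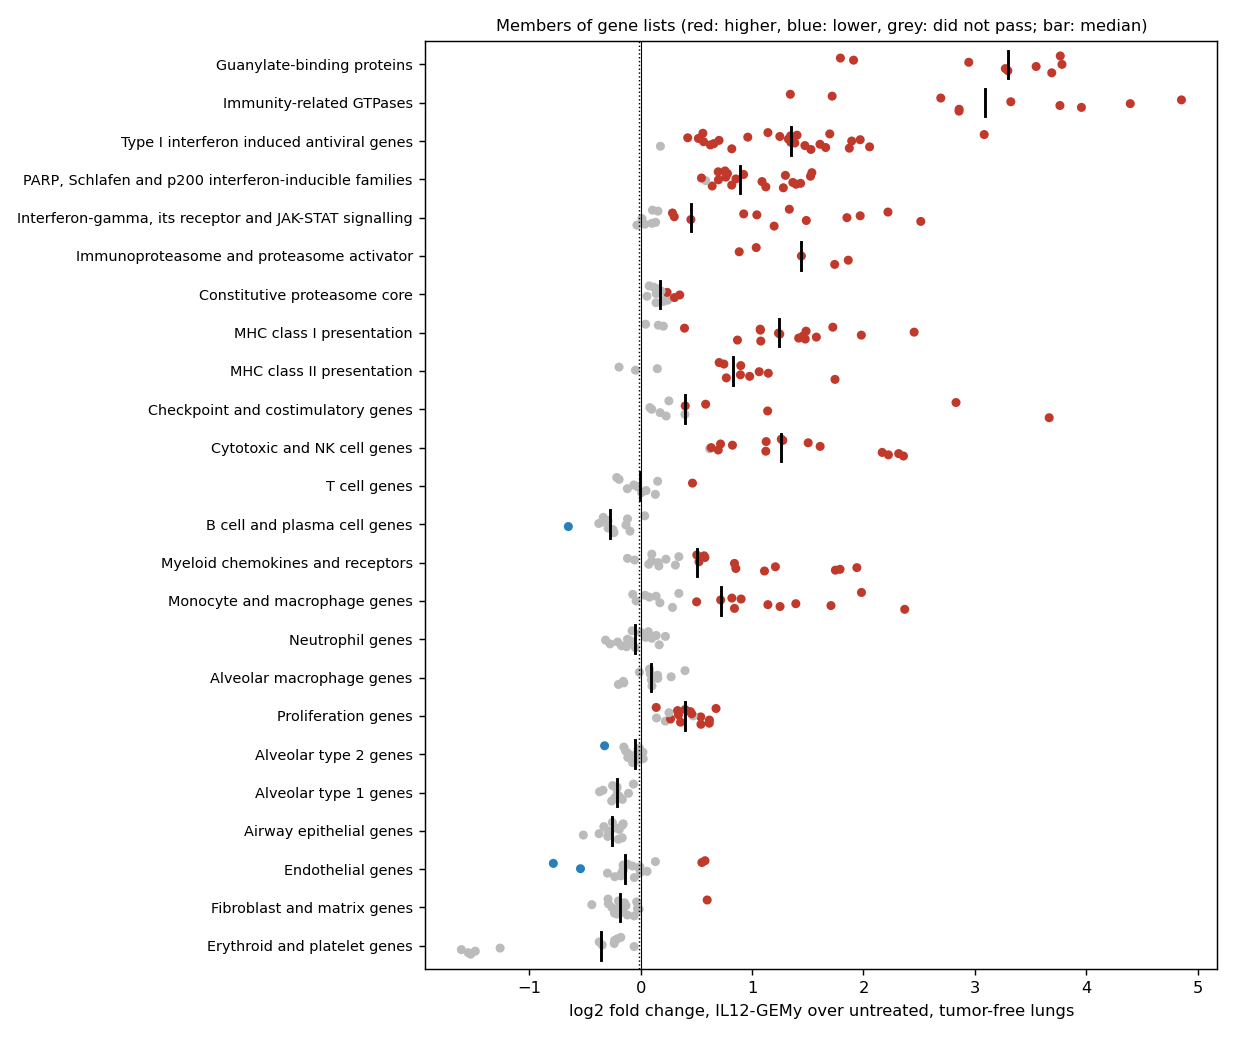
Each row is a gene list and each point a tested member, placed by its log2 fold change of IL12-GEMy over untreated in tumor-free lungs. Black bars are list medians and the dotted line the median of all genes (-0.02). The guanylate-binding protein and immunity-related GTPase rows lie farthest right, and the neutrophil, alveolar macrophage and epithelial rows lie around 0 or just below it.

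Transcripts of cytotoxic lymphocytes were higher in GEMy-treated lungs. Of 15 tested cytotoxic and NK cell genes 14 rose (median 1.26), and Klrd1 was at 0.62 with an adjusted p of 0.0778. Gzmb, the pro-apoptotic granzyme, had 11.3, 9.10, 8.80 and 11.6 FPKM in GEMy-treated lungs and 1.36, 1.66, 2.25 and 1.94 FPKM in untreated lungs (2.22 ± 0.26, adjusted p = 2.6e-05). Perforin (Prf1) had 11.5, 10.9, 7.67 and 13.0 FPKM with GEMy and 1.38, 1.87, 1.68 and 2.04 FPKM without (2.32 ± 0.23, adjusted p = 3.4e-06). Gzma rose by 2.36 and the granule protein Nkg7 by 2.17. Ncr1, the NKp46 receptor of NK cells, rose by 1.61 and Klrb1c, the NK1.1 antigen of this strain, by 0.70. In bulk lung, more cells of a type and more RNA per cell cannot be told apart. The summed list was 95 to 162 FPKM with GEMy and 23.1 to 36.8 FPKM without, and GEMy-treated replicate 3 was the lowest of its group. T cell genes did not move with it: 1 of 10 tested members rose, the kinase Lck (0.46), which NK cells also express. The receptor complex gene Cd3e was at 0.01, Cd8a at -0.03 and Cd4 at -0.12. Granzymes C to G, a cluster of copies on chromosome 14, were near absent from tumor-free lungs. Gzmd, Gzmf and Gzmg were listed at 0 in all 8 tumor-free libraries.

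Monocyte genes rose and neutrophil genes did not. Of 19 tested monocyte and macrophage genes 11 rose (median 0.72) and none fell. Ly6c2, which marks inflammatory monocytes, had 40.1, 30.3, 24.7 and 38.4 FPKM in GEMy-treated lungs and 4.94, 6.25, 5.96 and 6.70 FPKM in untreated lungs (2.37 ± 0.21, adjusted p = 1.0e-06). Plac8, also high in monocytes, rose by 1.98, the activating Fc receptors Fcgr4 and Fcgr1 by 1.71 and 1.25, and the complement genes C1qa, C1qb and C1qc by 0.72, 0.90 and 0.82. Lysozyme (Lyz2), shared by alveolar cells and macrophages, was at 0.14 and Apoe at -0.07, and neither passed. None of 19 neutrophil genes passed in either direction (median -0.05). S100a8, a calprotectin subunit, had 22.7, 38.6, 51.5 and 37.2 FPKM with GEMy and 30.5, 31.5, 41.6 and 48.3 FPKM without, so the groups overlapped throughout; its 95% interval of the log2 difference was -0.72 to 0.62. Alveolar macrophage genes had no call among 12. Of 9 dendritic cell genes 4 rose, and Cd209a, found on monocyte-derived dendritic cells, fell by 0.52 (adjusted p = 0.0474), a call lost in 8 of 8 fits without 1 library.

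The cell product shared several of these transcripts, and its possible remnant in lung was looked at through genes that it held at high levels. These genes were chosen after their values were seen. The product had 105 FPKM of Ly6c2, 50.8 of Plac8, 59.4 of the proliferation gene Mki67, 24.9 of the chymase Cma1 and 15.4 of Gzmb. It also held 166 FPKM of Mpo and 137 FPKM of Elane, granule enzymes of immature myeloid cells. In lung, Mpo averaged 0.206 ± 0.190 FPKM with GEMy and 0.194 ± 0.116 FPKM without (SD, n = 4 each), and Elane 0.468 ± 0.453 FPKM with GEMy and 0.262 ± 0.10 FPKM without. None of the 6 tested of 11 primary granule genes passed, though 5 of the 6 had positive values (median 0.26). The list summed to 41.8 to 50.5 FPKM with GEMy, 37.7 to 45.2 FPKM without and 626 FPKM in the product. Under the minimum, Gfi1 averaged 0.231 FPKM with GEMy, 0.106 FPKM without and 2.45 FPKM in the product. It passed in the fit with no minimum (0.27, adjusted p = 0.0299), while Mpo, Ms4a3, Prss57 and Fcnb did not. Cma1, which rose by 1.26 in lung, was the single call among 5 tested mast cell, basophil and eosinophil genes; Mcpt8 and Tpsb2, at 27.6 and 26.3 FPKM in the product, were at 0.08 and -0.35 in lung and did not pass.

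Proliferation genes were modestly higher. Of 17 tested members 13 rose (median 0.40), among them Rrm2, a subunit of ribonucleotide reductase (0.68), cyclin A2 (Ccna2, 0.62), topoisomerase Top2a (0.62) and Mki67 (0.54). Mki67 had 1.57, 1.61, 2.08 and 1.71 FPKM in GEMy-treated lungs and 1.17, 1.03, 1.09 and 0.865 FPKM in untreated lungs. The product's sum for this list was 496 FPKM, against 34.4 to 37.2 FPKM in GEMy-treated lungs and 23.3 to 26.8 FPKM in untreated lungs, and its part in the difference was not tested. The count is less firm than those above: it dropped to between 5 and 8 without GEMy-treated replicate 1, 3 or 4 or untreated replicate 2, 3 or 4, and to 8 under quantile normalization, and the Mki67 call was lost without GEMy-treated replicate 3 (adjusted p = 0.0507) or untreated replicate 4 (adjusted p = 0.0516).

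Falls were few and small. Nptx1, a neuronal pentraxin also transcribed outside the nervous system, had 1.34, 1.50, 1.93 and 1.47 FPKM in GEMy-treated lungs and 3.68, 3.83, 4.07 and 3.81 FPKM in untreated lungs (-1.08 ± 0.12, adjusted p = 1.0e-05). Aplnr, the apelin receptor of endothelium, had 24.5, 28.4, 26.0 and 27.1 FPKM with GEMy and 38.1, 44.5, 49.6 and 53.2 FPKM without (-0.79 ± 0.18, adjusted p = 0.0128). Groups did not overlap in either gene. The list of 20 tested endothelial genes held 2 falls, Aplnr and the endothelin B receptor Ednrb (-0.54), and 2 rises, the leukocyte adhesion molecules Sele (0.58) and Vcam1 (0.55), with a median of -0.14. Outside the list, Esm1, an endothelial proteoglycan (-0.69), and Cd300lg, a receptor of capillary endothelium (-0.51), fell. Sele averaged 0.402 ± 0.0293 FPKM in GEMy-treated lungs and 0.106 ± 0.0444 FPKM in untreated lungs, and its call was lost under quantile normalization (adjusted p = 0.181). Among the 12 largest falls were also Ankrd63 (-0.69), Calml3 (-0.61), the developmental transcription factors Sox11 (-0.61) and Prdm8 (-0.59), the arrestin-like Arrdc3 (-0.51) and Fcer2a, the low-affinity IgE receptor of B cells (-0.65). Calml3, Arrdc3 and Fcer2a each lost their call when single libraries were left out.

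The structural lists held few calls. The 12 alveolar type 1 genes (median -0.22), 13 airway epithelial genes (median -0.26) and 12 erythroid and platelet genes (median -0.36) were all negative. None of them passed. Negative values were also the majority over all genes tested, at 5697 of 10284, and members of 1 list may move together. Quantile normalization called 4 airway genes lower and array weights called 7 airway and 5 erythroid genes. The alveolar type 1 sum was lowest in GEMy-treated replicate 4, at 687 FPKM, against 1131 to 1280 FPKM in untreated lungs; Ager, its most abundant member, had 869, 786, 718 and 422 FPKM with GEMy and 843, 832, 709 and 858 FPKM without. Of 14 alveolar type 2 genes only the fatty acid transporter Cd36 passed (-0.32), a call lost in 7 of 8 fits without 1 library. The mesothelial genes Upk3b (-0.34) and Lrrn4 (-0.32) fell, with overlapping groups for Upk3b and calls lost in 2 and 6 of those 8 fits. Timp1, an inhibitor of matrix proteases, was the 1 call among 19 fibroblast and matrix genes (0.60) and lost it in 4 of the 8. The drug-metabolizing monooxygenase Fmo1 fell by 0.47, the 1 call among 15 xenobiotic genes. Of 18 immediate early and heat shock genes Atf3 (0.94) and Dnajb1 (0.42) rose, and Dnajb1 lost its call in 7 of 8 such fits. Of 14 myeloid suppression genes, Il10 and the NADPH oxidase subunit Ncf1 (0.48) rose, and Ncf1 lost its call in 6 of 8. Lists of B cell (1 fall of 12), smooth muscle (0 of 13), circadian (0 of 12), glucocorticoid (0 of 12), cholesterol synthesis (0 of 16), goblet (0 of 6) and skeletal muscle and thymocyte genes (0 of 2) held no other call.

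Whether the effect differed in tumor-bearing lungs was asked with the interaction, the tumor-free effect minus the tumor-bearing one; the 2 effects share no library. It passed for 644 genes (6.26%), 537 (5.22%) with the larger value in tumor-free lungs and 107 (1.04%) with the larger value in tumor-bearing lungs. It was at least 2-fold in 147 (1.43%) and 5 (0.0486%) of these. Quantile normalization gave 406 and 223, a share of 64.5% with the larger value in tumor-free lungs instead of 83.4%. A larger value there can be a larger rise in tumor-free lungs or a fall in tumor-bearing lungs. Of the 537 genes in the main fit, 266 rose in tumor-free lungs and the others did not pass there. In tumor-bearing lungs themselves 692 genes passed (6.73%), 309 higher (3.00%) and 383 lower (3.72%) with GEMy. Of the 576 genes that rose in tumor-free lungs, 202 also rose in tumor-bearing lungs, 35.1% of the tumor-free rises and 65.4% of the tumor-bearing ones. A further 39 fell there. For 267 of the 576 (46.4%) the interaction passed, in 266 with the larger rise in tumor-free lungs. Of the 154 falls, 8 were also falls in tumor-bearing lungs, 5.19% of the tumor-free and 2.09% of the tumor-bearing ones. A further 1 was a rise there, and 47 (30.5%) had an interaction. The 576 rises and 154 falls were picked by the tumor-free effect, which the interaction contains. The shares with an interaction, and its direction, therefore follow in part from the picking.

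The effects behind these differences were not all of one kind. Cxcl9 reached 8.59, 14.6, 10.6 and 10.0 FPKM in GEMy-treated tumor-bearing lungs and 3.62, 7.02, 17.6 and 23.9 FPKM in untreated tumor-bearing lungs, an effect of 0.06 that did not pass, beside 3.24 in tumor-free lungs (interaction 3.18, adjusted p = 0.00438). Cxcl10 (interaction 3.49) and Gzmb (2.49) had tumor-bearing effects of 0.55 and -0.27 that did not pass. In all 3 genes every untreated tumor-bearing library stood above every untreated tumor-free one. Igtp rose in both settings, by 3.96 in tumor-free and 1.91 in tumor-bearing lungs (interaction 2.05, adjusted p = 0.00122). It averaged 104 ± 9.37 FPKM in treated tumor-free and 118 ± 10.7 FPKM in treated tumor-bearing lungs (SD, n = 4 each). Its untreated level was also higher in tumor-bearing lungs: treated tumor-free lungs stood 1.73 above it and 3.96 above untreated tumor-free lungs. Summed immunity-related GTPases were 123 to 307 FPKM in untreated tumor-bearing and 41.8 to 54.3 FPKM in untreated tumor-free lungs. In treated lungs the sums were 633 to 735 and 509 to 642 FPKM. By list, the interaction was larger in tumor-free lungs for 8 of 9 GBPs, 8 of 10 immunity-related GTPases, 11 of 18 MHC class I, 3 of 12 MHC class II, 9 of 15 cytotoxic, 11 of 19 monocyte and macrophage and 0 of 17 proliferation genes. For Ifng the effects were 1.20 and 1.09 in tumor-free and tumor-bearing lungs and the interaction did not pass (0.10, adjusted p = 0.883).

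The reverse pattern was that of type 2 and goblet cell genes. Clca1, a goblet cell secretory protein, had 0.355, 0.363, 1.16 and 0.168 FPKM in GEMy-treated tumor-free lungs and 0.416, 0.268, 0.572 and 0.329 FPKM in untreated ones, and did not pass (0.10). In tumor-bearing lungs it had 2.7, 5.03, 30.6 and 19.7 FPKM with GEMy and 1.52, 0.263, 0.262 and 0.747 FPKM without (interaction -3.13, adjusted p = 0.0345). Retnla, a secreted product of alternatively activated macrophages and airway epithelium, had 20.6, 25.5, 22 and 17.3 FPKM in GEMy-treated and 24.3, 20.8, 22.7 and 17.1 FPKM in untreated tumor-free lungs. In tumor-bearing lungs it had 71.1, 83.0, 241 and 180.2 FPKM with GEMy and 31.7, 20.4, 19.5 and 29.0 FPKM without (interaction -2.33, adjusted p = 0.00543). The mucin Muc5b (-1.16), the trefoil peptide Tff2 (-1.16), Bpifb1 (-0.99) and the small G protein Rasd1 (-1.03) had interactions of the same sign, and none of them passed in tumor-free lungs. The calls of Clca1, Bpifb1 and Tff2 were lost in 11, 11 and 7 of 16 fits without 1 library.

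Lungs exposed to GEMys but no tumor were also set directly against lungs exposed to the tumor but no GEMys. Here 2335 genes differed (22.7%), 1450 (14.1%) higher and 885 (8.61%) lower in GEMy-treated tumor-free lungs, with 36 (0.350%) and 146 (1.42%) at least 2-fold. Median-of-ratios scaling turned the split to 928 higher and 1134 lower, so the direction of small differences in this comparison depends on the scaling. All 9 GBPs, all 10 immunity-related GTPases, all 5 immunoproteasome genes, 12 of 18 class I genes and 10 of 12 class II genes were higher with GEMy. Wars averaged 44.4 ± 6.84 FPKM in GEMy-treated tumor-free lungs and 12.1 ± 2.95 FPKM in untreated tumor-bearing lungs (1.85 ± 0.15, adjusted p = 5.5e-07). Gbp10 (1.94), Serpina3f (1.83), Tgtp1 (1.81), Cd274 (1.78) and Igtp (1.73) were the other leading rises. Cxcl9 and Cxcl10 were at -0.90 and -0.15 and did not pass, and Ccl4 at -0.52 did not either. Without untreated tumor-bearing replicate 1, Cxcl9 did pass (-1.36, adjusted p = 0.00402). Gzmb was lower by -0.80 (adjusted p = 0.0384), a call lost in 6 fits without 1 library.

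Neutrophil genes marked the other side. Of 19, 17 were lower in GEMy-treated tumor-free lungs than in untreated tumor-bearing lungs. S100a8 averaged 37.5 ± 11.8 FPKM in the treated tumor-free group and 914 ± 259 FPKM in the untreated tumor-bearing group (-4.60, adjusted p = 1.0e-07). S100a9 was lower by -4.61 and Retnlg, a neutrophil resistin-like protein, by -4.66. Hemoglobin transcripts took 0.404 to 4.15% of assigned reads in untreated tumor-bearing lungs and 0.0735 to 0.252% in treated tumor-free ones. Of 12 erythroid and platelet genes 7 were lower in the same comparison. Untreated tumor-free replicate 2, with 1.15% hemoglobin, had a neutrophil sum of 136 FPKM, against 1422 to 2518 FPKM in untreated tumor-bearing lungs. The part of blood left in the tissue was not tested. Gzmd, Gzmf and Gzmg had 0 reads over the 4 treated tumor-free libraries and 6305, 7587 and 7006 reads over the 4 untreated tumor-bearing ones. They passed the minimum for testing only through the tumor-bearing lungs, so the direction of their difference was set in advance. Against a floor of 3 reads over a group they were at least 2067-fold, 2487-fold and 2297-fold lower, or at least 1361-fold, 1614-fold and 1496-fold without untreated tumor-bearing replicate 4, which held about as many of these reads as the other 3 libraries together. Reads can be shared among these near-identical copies, and the bounds cover counting error only.

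**Figure D4:**
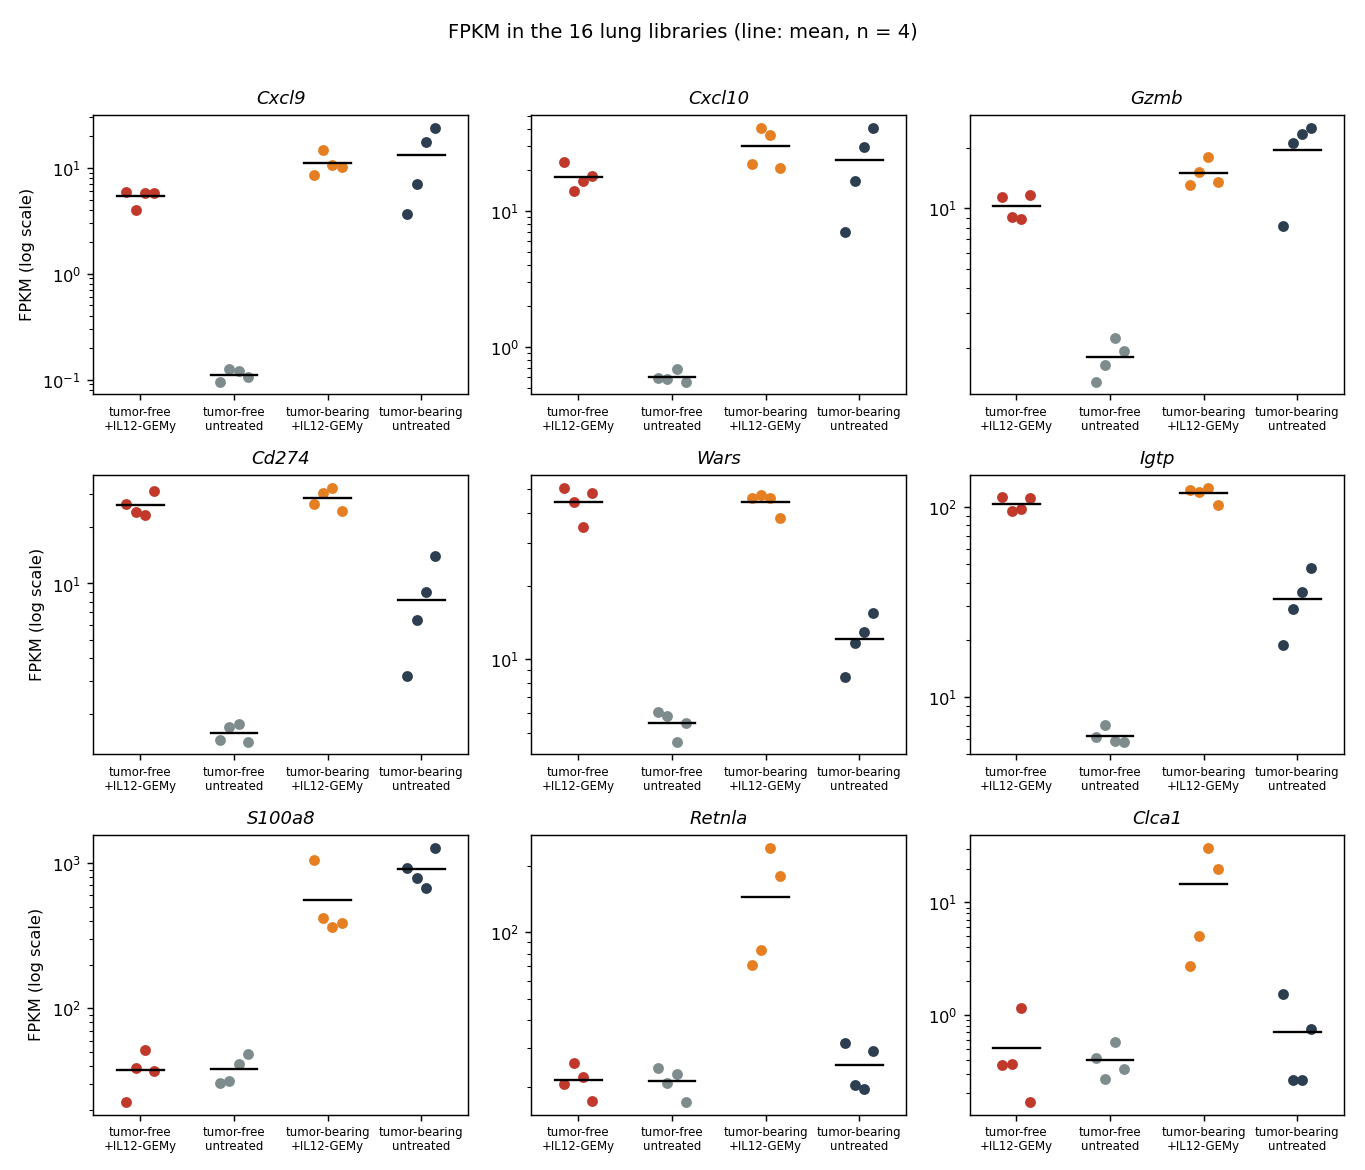
FPKM on a log scale for 9 genes in the 16 lung libraries, 4 per group, with group means as lines. Untreated tumor-free lungs are lowest for Cxcl9, Cxcl10, Gzmb, Cd274, Wars and Igtp; S100a8 is high only in the tumor-bearing groups, and Retnla and Clca1 are highest in GEMy-treated tumor-bearing lungs.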

How the data were processed

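The values are FPKM deposited by the authors for 18262 genes in 17 libraries. Reads were aligned with STAR 2.7.3a to mm10 and handled in Partek, per the submitters' processing notes; annotation, strand handling and filters are not given in the sources used here. FPKM times the listed gene span in kilobases sums to 1000000 in every column, so the span (introns included) is the length used, and genes with long introns read low. Recovered read steps left 86.6 to 88.4% of values whole within 0.02. Lung libraries were analysed as log2(FPKM + 0.5) with limma 3.58.1 in R 4.3.3, fitting 4 group means over 16 lungs with trend and robust moderation; tests were 2-sided and adjusted by Benjamini-Hochberg over all 10284 genes tested. The pseudocount understates changes of low genes. The cell product entered no test. Named genes were the 14 largest rises and 12 largest falls with groups apart, the 2 most changed called members of each of 42 lists, 25 fixed genes, and the 6 largest values on each side of the 2 other comparisons; predicted models and copy-rich gene classes were left out of the ranked picks. Other genes named were chosen after their values were seen. The members and lists were chosen with earlier results of these data known, so list counts are descriptions. Listed ends were taken 1 base before the file's Stop, which equalled the RefSeq end for 11604 of 18151 matched symbols. Promoters came from RefSeq GRCm38.p6; Gbp4, Gbp6, Gbp8, Gbp9, Gbp10, Iigp1, Gm4951 and F830016B08Rik had no entry. The fit was tested on simulated data. Python 3.11.15 with matplotlib 3.10.9 drew the figures. Some genes that the rule picked are not reported here.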

Additional observations from a re-analysis of the deposited data

Results flagged for a closer look

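Among 174 groups of 4 libraries (87 genes in the 2 tumor-free groups), 8 held a library far from the other 3, where chance gives about 1 in 20. In GEMy-treated lungs, Gbp10 was high in replicate 4 at 9.21 FPKM (the others 7.02 to 7.23) and Psma5 high in replicate 1 at 1.65 FPKM (1.46 to 1.49). Cxcl9 was low in GEMy-treated replicate 2 at 3.96 FPKM (5.72 to 5.90), and Timp1 low in replicate 4 at 1.64 FPKM (2.48 to 2.63). In untreated lungs, Gbp6 and Gbp4 were low in replicate 4 at 1.40 FPKM (2.08 to 2.21) and 1.67 FPKM (3.02 to 3.06), Plac8 low in replicate 1 at 1.86 FPKM (2.46 to 2.53) and Cma1 high in replicate 4 at 0.699 FPKM (0.436 to 0.476).

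The effect of GEMy differed between tumor-free and tumor-bearing lungs, by the limma interaction at an adjusted p under 0.05, for 55 named genes, 46 of them with the larger value in tumor-free lungs. Over all 10284 genes tested it passed for 644 (6.26%), 537 of them with the larger value in tumor-free lungs. Of the 537, 266 rose in tumor-free lungs and the others did not pass there. The named genes were picked in part by the tumor-free effect or the interaction itself, so their count and direction follow in part from the picking. The log2 difference between the effects was largest for Cxcl10 (3.49), Cxcl9 (3.18), Gm12250 (2.73), Gzmb (2.49), Serpina3f (2.41), Tgtp1 (2.29), Gbp4 (2.09), Gzmg (2.09), Igtp (2.05), Ccl4 (1.98), Gzmd (1.98), Zbp1 (1.98), Plac8 (1.97), Gzmf (1.96), Tgtp2 (1.94) and Gbp6 (1.91). It was intermediate for Gbp2 (1.81), Cd274 (1.77), Gbp3 (1.76), Ly6c2 (1.74), Iigp1 (1.72), Gbp5 (1.67), Ifi204 (1.59), Prf1 (1.56), Ifi211 (1.44), Isg15 (1.41), Gzma (1.41), Tap1 (1.41), Il18bp (1.39), Gbp10 (1.34) and Serpina3g (1.32). It was smaller for Atf3 (1.15), Arg1 (1.15), Wars (1.05), Psmb9 (1.03), Sele (0.98), H2-T23 (0.97), Cma1 (0.94), Psmb8 (0.92), Ccl8 (0.87), Irf1 (0.85), Il18rap (0.80), Ccl17 (0.77), Dnajb1 (0.61), Irf8 (0.54) and H2-DMa (0.48). The value was larger in tumor-bearing lungs for Upk3b (-0.51), Lrrn4 (-0.54), Esm1 (-0.64), Bpifb1 (-0.99), Rasd1 (-1.03), Muc5b (-1.16), Tff2 (-1.16), Retnla (-2.33) and Clca1 (-3.13). Several of these calls were not firm. Of 26 alternatives, the call held in 7 for Gbp10 and for H2-DMa, 9 for Irf8, 12 for Ifi211, 13 for Clca1 and for Bpifb1, 14 for Gzma and for Dnajb1, 16 for Esm1, 17 for Irf1 and 18 for Tff2. Gzmd, Gzmf and Gzmg had no tumor-free reads, so their differences come from the tumor-bearing lungs alone. Arg1 was at -0.03 in tumor-free lungs, so its difference comes mostly from a lower value with GEMy in tumor-bearing lungs.

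The cell product, a single library that entered no test, held several genes above every untreated tumor-free lung. It had 2.22 FPKM of Il12a, against 0.289 FPKM in the highest untreated lung, and 0.330 FPKM of Il12b, against 0.0882 FPKM. Mpo and Elane had 166 and 137 FPKM in the product, against 0.351 and 0.406 FPKM. S100a8 and S100a9 had 493 and 249 FPKM, against 48.3 and 31.0 FPKM. Ly6c2 and Plac8 had 105 and 50.8 FPKM, against 6.70 and 2.53 FPKM. Cma1, Mki67 and Gzmb had 24.9, 59.4 and 15.4 FPKM, against 0.699, 1.17 and 2.25 FPKM.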

How the results depend on the processing

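No called value of a named gene changed sign under the alternatives run, but values that did not pass did: the tumor-free log2 difference ranged from -0.22 to 0.17 for S100a8, -0.09 to 0.10 for Retnla, -0.17 to 0.27 for Clca1 and -0.06 to 0.05 for Sftpc, and the interaction from -0.27 to 0.98 for Ifng and -0.30 to 0.05 for Aplnr. Against untreated tumor-bearing lungs, median-of-ratios scaling turned 1450 higher and 885 lower genes into 928 and 1134. Genes differing between GEMy-treated and untreated tumor-free lungs numbered 730, and 1188 with only the compared libraries, 2051 with array weights, 711 to 837 with other pseudocounts or no minimum, and 472 (without GEMy-treated replicate 4) to 658 when 1 library was left out. For the difference between tumor-free and tumor-bearing effects, 644 became 1881 with array weights and 383 to 1256 when 1 library was left out; it was 423 without GEMy-treated replicate 1, 383 without replicate 4, 384 and 407 without untreated tumor-free replicate 1 and 2, 385 without untreated tumor-bearing replicate 3 and 1256 without untreated tumor-bearing replicate 1. Against untreated tumor-bearing lungs, 2335 became 1498 with only the compared libraries and 1543 (without GEMy-treated replicate 1) to 3105 when 1 library was left out. Same-numbered libraries did not deviate together in every pair (r = 0.007, 0.031, 0.328 and -0.244). So few values cannot tell whether the numbers mark a pairing or a batch, and the main fit held no such term. A replicate block gave 829, 799 and 2703 calls in the 3 comparisons, against 730, 644 and 2335 in the main fit. The causes of these shifts were not tested. Over the alternatives, single named genes kept the tumor-free call or its absence 1598 times, lost it 69 times and gained it 1 time. For the interaction these were 2116, 152 and 16 times, and against untreated tumor-bearing lungs 507, 10 and 13 times. FPKM values under the pseudocount limit what can be said of Ifng, Il10, Il12a and Il12b.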
